A study of Homo sapiens with 6 samples.

Results

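The genes described here encode the cytochrome P450 enzymes and the enzymes that conjugate or reduce drugs, steroids, bile acids and lipid oxidation products. They were chosen by symbol from the deposited count table. The families are CYP, UGT1A, UGT2A, UGT2B, cytosolic and mitochondrial GST, MGST, SULT1, SULT2, SULT4 and AKR1. The symbols matched 75 genes of the table, and 5 of them were left out as parts of retinoid, vitamin D breakdown and cholesterol pathways (CYP24A1, CYP26A1, CYP26B1, CYP26C1 and CYP51A1). This left 70 genes of 16229. The rule itself uses symbols only, but the members were chosen with earlier results of these data known.

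Cytochrome P450 enzymes are haem proteins of the endoplasmic reticulum and mitochondria that insert oxygen into their substrates with electrons from POR or ferredoxin. Conjugating enzymes then attach glucuronate (UGT), glutathione (GST, MGST) or sulfate (SULT), and AKR1 enzymes reduce aldehydes and ketones. In liver and intestine many of these genes are switched on by ligand-activated factors such as AHR, PXR and CAR, or by NRF2, and several of the enzymes make, hydroxylate or conjugate bile acids.

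RNA sequencing was done on cells of a colorectal cancer line labelled MC38, all of genotype WT. The GCA group had 3 libraries from cells kept for 24 hours with GCA, read from the title of the series as glycocholic acid, a glycine-conjugated bile acid. The CON group had 3 libraries from cells without it. The sources used here give no dose and do not tell whether the libraries of a group are separate cultures. The p-values therefore reflect the spread among these 6 libraries, which may be technical. The sample titles of the GCA libraries read fa, and their group rests on the treatment label alone. The name MC38 belongs to a mouse line, yet organism, build (hg38) and gene symbols are all human. The extraction text names heart samples, and both polyA RNA and a ribosomal depletion kit are named.

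The libraries held between 18057453 and 20531612 counts. At this depth 3 counts, taken as the floor, equalled 0.146 to 0.166 CPM (counts scaled to TMM-adjusted library size), and floors cover counting error only. CON 1 stood apart from CON 2 and CON 3 on the second principal component of all tested genes (34.5 against -14.7 and -17.8, 18.1% of the variance). Calls of the members that turn on it are given without it. Of 14 colorectal epithelial marker genes, 9 passed the filter and 5 of these were called higher in GCA, where 18.3% of all tested genes were. Their list had summed levels of 11136 to 12706 CPM in GCA and 7920 to 10112 CPM in CON. The keratins KRT8, KRT18 and KRT19 held most of these sums, at 6306, 2008 and 2394 CPM in GCA 1. CDX2 was well detected and not called (0.25, adjusted p = 0.131), but passed without CON 1 (0.0116), as did KRT19 (0.0478). CDX1 and LGR5 had at most 10 counts in every library. CDH17 (6 to 17 counts), GPA33 (3 to 19) and CEACAM5 (2 to 16) were under the filter too, and VIL1 had 8 to 22 counts. Defining markers of hepatocytes (ALB), leukocytes (PTPRC), fibroblasts (DCN) and cardiomyocytes (MYH6, MYH7) had at most 2 counts in every library. Other genes of these lists were higher in GCA: SERPINA1 (log2 fold change 1.76, adjusted p = 0.000179), CORO1A (1.16, 0.00367), COL1A1 (0.44, 0.0340), VWF (1.43, 0.00847), TNNI3 (0.68, 0.00136; 718 to 781 counts in GCA and 415 to 483 in CON) and S100A9, with 14, 19 and 23 counts in GCA and 2, 2 and 1 in CON. These 6 were called higher and 0 lower in edgeR's test, where 18.3% of all tested genes were called higher and 18.1% lower. With the GC and length correction described below, COL1A1 (0.07, adjusted p = 0.674) and TNNI3 (0.11, 0.534) no longer passed, and the others did. COL1A1 also did not pass without GCA 1, GCA 2, GCA 3, CON 2 or CON 3 (up to 0.144). The other tested genes of these lists were not called: CPS1 (log2 fold change -0.0049, adjusted p = 0.985), CD68 (-0.29, 0.273) and MYL2 (-0.73, 0.135). TNNI3 held most of the cardiomyocyte sum below, at 35.6 to 40.9 CPM in GCA and 21.6 to 25.0 CPM in CON. In the hepatocyte sum SERPINA1 was at 13.1 to 21.0 CPM in GCA and 3.45 to 6.42 CPM in CON. The summed level of the hepatocyte list (2 of 9 genes passed the filter) was 28.7 to 34.3 CPM in GCA and 17.8 to 20.6 CPM in CON, and that of the leukocyte list (3 of 6) 32.4 to 42.0 CPM in GCA and 27.6 to 31.7 CPM in CON. For fibroblasts and endothelium (2 of 7) it was 16.4 to 18.3 CPM in GCA and 11.3 to 12.7 CPM in CON, and for cardiomyocytes (2 of 7) 37.3 to 42.6 CPM in GCA and 23.5 to 26.8 CPM in CON. Every GCA library exceeded every CON library in all 4 sums, and their part in the results was not tested. In bulk RNA, more cells of one kind and more RNA per cell cannot be told apart.

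Of the 70 genes, 39 had enough counts to be tested and 31 did not. Of the 39, 15 were higher in GCA at an adjusted p under 0.05, 0 were lower and 24 did not pass. The p-values came from edgeR's quasi-likelihood test and were adjusted across all 12604 tested genes (Benjamini-Hochberg). Below, rose and fell mean called higher and called lower in GCA, and the cause was not tested. The 15 were CYP1A1, CYP4F3, CYP4F12, CYP4F22, GSTK1, GSTM4, GSTZ1, MGST2, MGST3, SULT1A1, SULT1A2, SULT1A3, SULT2B1, AKR1A1 and AKR1B1. They made up 38.5% of the tested members, against 18.3% of all tested genes called higher, 18.1% called lower and 36.4% called in either direction. At an unadjusted p under 0.05, 1 member was lower, and DESeq2 and limma-voom called 0 lower. In 21 members every GCA library lay above every CON library (53.8%, against 24.1% of all tested genes). The opposite held for 3 members, MGST1, AKR1E2 and CYP20A1 (24.3% of all tested genes), and 15 overlapped. With replicate number as a block 16 members passed, all higher, against 41.0% of all tested genes in either direction. Without CON 1, 16 were called higher (25.3% of all tested genes higher, 27.3% lower), and without GCA 3, 8 (11.8% higher, 8.88% lower). A member with counts in one group only can pass the filter through that group, so these counts describe the tested genes and not all 70.

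Fold changes across the transcriptome moved with base composition. Across 12563 tested genes the log2 fold change had a Pearson correlation of 0.48 with the GC content of a gene's transcripts, and across the 39 members it was 0.43. The members had a median GC content of 53.1%, against 51.1% for all tested genes. A fit that corrected each library for GC content and gene length brought the correlation to 0.01 and called 10 members higher and 0 lower (25.6% of members, against 11.9% of all tested genes higher and 16.7% lower). The median log2 fold change of the members was 0.42 without and 0.26 with the correction, against -0.04 and -0.06 for all tested genes. Whether GC content or the treatment sets these differences was not tested, and corrected values stand beside each gene below where they change its call.

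**Figure D1:**
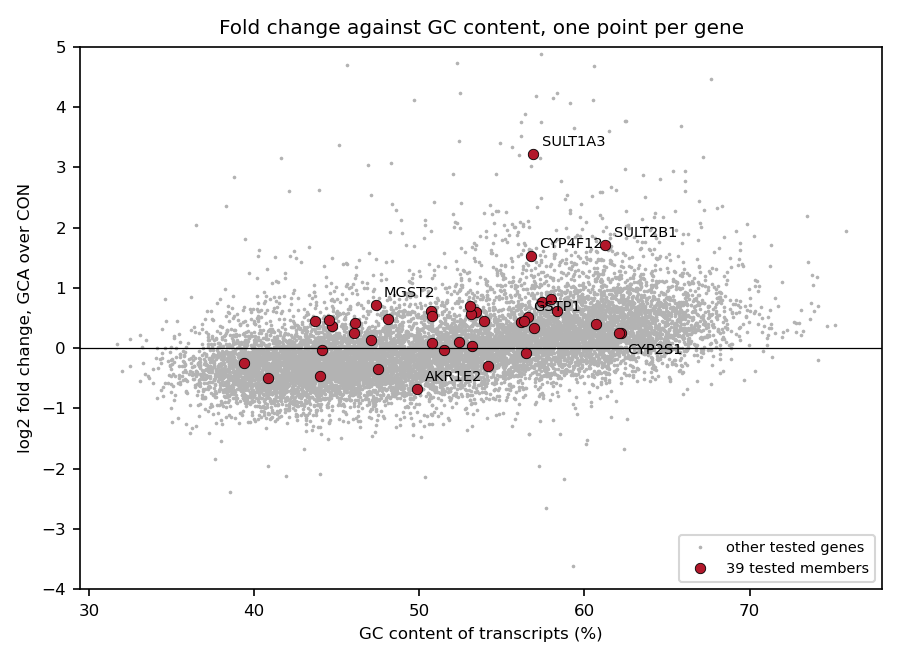
The log2 fold change of GCA over CON (vertical axis) is plotted against the GC content of each gene's transcripts in percent (horizontal axis), with the 39 tested members in red and the other tested genes in grey; 9 genes lie outside the plotted range. The cloud of all genes climbs with GC content. SULT2B1, CYP4F12 and MGST2 lie above its middle at their GC content, but other genes lie higher, such as ACY3 (3.60 at 61.5%) and ABCA1 (1.93 at 48.2%). GSTP1 and CYP2S1 lie inside the cloud.

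The differences that held most widely were those of 6 genes. SULT2B1, SULT1A1, CYP4F12, GSTM4, MGST2 and AKR1B1 passed the test with all 6 libraries, whichever single library was left out, and once GC content and length were corrected for. The 3 members with at least a 2-fold difference were SULT1A3, SULT2B1 and CYP4F12, and 5 of the 15 differed by less than 1.5-fold. The heat map of all tested members shows their levels by family.

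**Figure D2:**
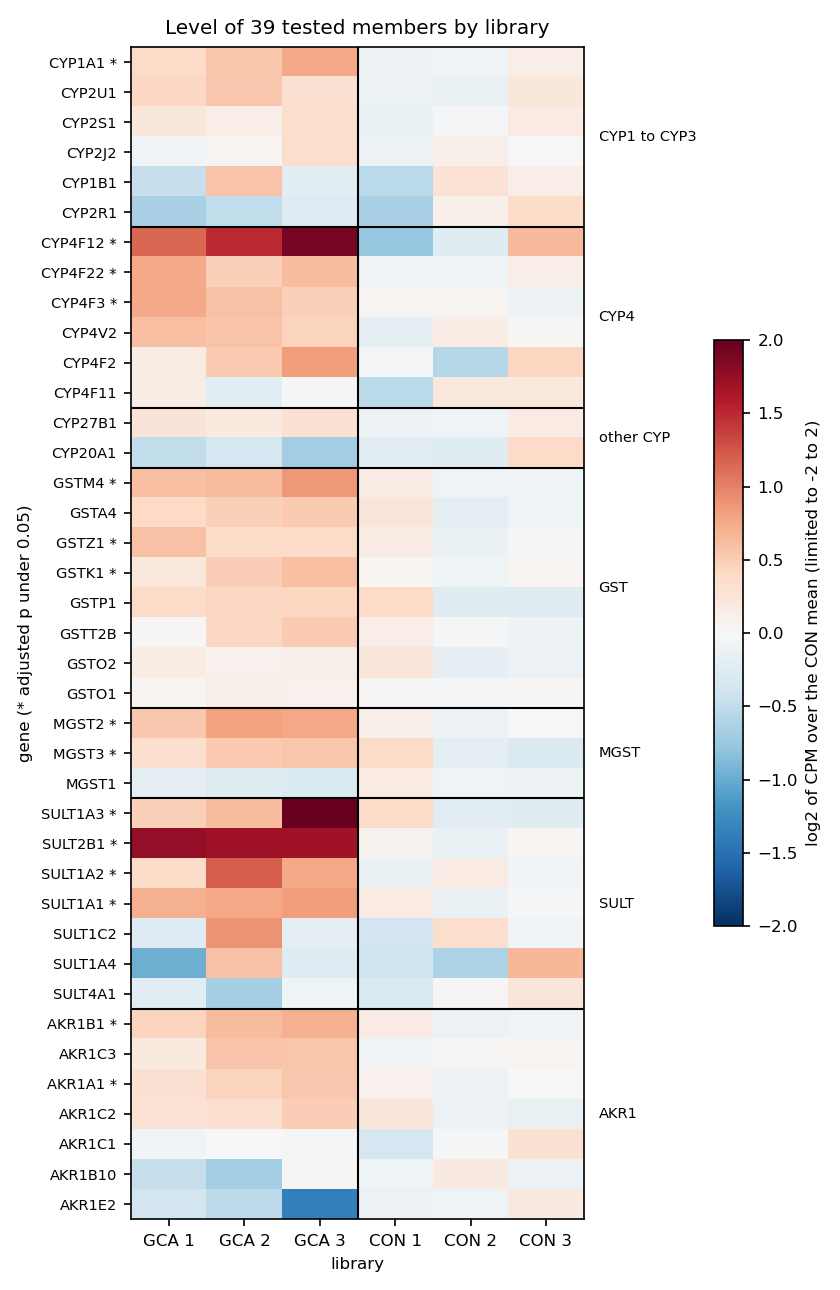
The colour gives log2 of CPM in each library over the CON mean of that gene, limited to the range from -2 to 2, for the 39 tested members (rows, by family, asterisks mark an adjusted p under 0.05) in 3 GCA and 3 CON libraries (columns). SULT2B1 and CYP4F12 are dark red in all GCA libraries, SULT1A3 in GCA 3 alone, and GSTP1 and MGST3 are about as red in CON 1 as in the GCA libraries.

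Sulfotransferases held the member with the clearest difference, SULT2B1. They move sulfate from the donor PAPS onto phenols, steroids and bile acids. Of 9 members, 7 were tested and 4 rose (2 with the GC and length correction), where 18.3% of all tested genes rose (11.9% with it). The summed level of the family was 75.8, 79.1 and 91.1 CPM in GCA 1 to 3 and 46.9, 41.1 and 44.5 CPM in CON 1 to 3. The groups did not overlap.

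SULT2B1, which sulfates cholesterol, oxysterols and other hydroxysteroids, lies on chromosome 19 (48552172 to 48599427, RefSeq coordinates, GRCh38.p14). It was at 17.3, 16.6 and 16.3 CPM in GCA 1 to 3, against 5.40, 4.69 and 5.28 CPM in CON 1 to 3. All GCA libraries were within a narrow band more than 10 CPM above the CON libraries. This was a 3.27-fold difference, or 1.71 ± 0.16 as log2 fold change (SE, adjusted p = 1.21e-05). The corrected value was 1.21 ± 0.13 (adjusted p = 0.000386). Leaving out single libraries gave adjusted p between 3.85e-06 and 0.000437.

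Promoters of 3 members are printed because they hold the short motifs that the regulators AHR and NRF2 are known to bind. SULT2B1 had the largest difference that did not rest on 1 library, CYP1A1 is the best known target of AHR, and GSTP1 is the most abundant member per length; CYP1A1 and GSTP1 were picked after their values were seen. Each sequence is the 250 bases before the gene start, from RefSeq (GRCh38.p14), read 5′ to 3′ on the strand of the gene. Capitals mark GCGTG, the core of the xenobiotic response element bound by AHR, which is also a form of the hypoxia response element core, or TGACNNNGC, the core of the antioxidant response element bound by NRF2.
SULT2B1, chr19:48551922-48552171, plus strand: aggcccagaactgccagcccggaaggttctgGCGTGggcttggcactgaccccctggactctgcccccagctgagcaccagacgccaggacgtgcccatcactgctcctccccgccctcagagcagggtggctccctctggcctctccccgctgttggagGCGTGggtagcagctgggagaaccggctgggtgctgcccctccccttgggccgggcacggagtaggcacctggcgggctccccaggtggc
CYP1A1, chr15:74725529-74725778, minus strand: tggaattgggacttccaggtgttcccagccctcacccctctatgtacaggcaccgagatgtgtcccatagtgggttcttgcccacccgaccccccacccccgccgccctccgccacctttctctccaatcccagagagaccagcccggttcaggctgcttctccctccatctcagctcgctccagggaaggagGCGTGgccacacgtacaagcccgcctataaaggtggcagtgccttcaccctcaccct
GSTP1, chr11:67583562-67583811, plus strand: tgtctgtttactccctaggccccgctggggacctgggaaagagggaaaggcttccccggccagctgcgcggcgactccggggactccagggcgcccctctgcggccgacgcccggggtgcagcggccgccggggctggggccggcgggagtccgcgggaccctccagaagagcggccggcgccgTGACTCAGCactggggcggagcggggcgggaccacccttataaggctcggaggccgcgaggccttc

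GCGTG began 219 and 90 bases before the start of SULT2B1 and 57 bases before that of CYP1A1, and TGACNNNGC began 66 bases before that of GSTP1, where its letters include TGACTCA, the site known for AP-1. Searched on both strands, GCGTG was in 31.9% and TGACNNNGC in 11.0% of 27305 RefSeq promoter windows of the same length. Of the 15 members that rose, 11 had a promoter entry; 7 of these windows held GCGTG and 0 held TGACNNNGC. Of 30 tested members with an entry, 10 and 6 did. These matches are letters in a window and say nothing about binding.

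SULT1A1, the main phenol sulfotransferase of gut and liver, was at 51.2, 53.4 and 56.0 CPM in GCA 1 to 3, against 35.0, 28.6 and 30.4 CPM in CON 1 to 3. The groups were well separated, with a log2 fold change of 0.77 ± 0.12 (adjusted p = 0.000488) and 0.48 with the correction (adjusted p = 0.00525). SULT1A2, a close copy, was at 1.74, 3.10 and 2.30 CPM in GCA and 1.23, 1.51 and 1.29 CPM in CON, with a log2 fold change of 0.82 ± 0.30 (adjusted p = 0.0470). Its groups did not overlap, but the call was lost with the correction (0.44, adjusted p = 0.302) and without GCA 2 (0.205), GCA 3 (0.113), CON 1 (0.0606), CON 2 (0.0774) or CON 3 (0.107). It was also lost with upper-quartile scaling (0.0605), on library size (0.0774), without the filter (0.0556), with DESeq2 (0.0762) and with limma-voom (0.0645).

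SULT1A3, which sulfates dopamine and other catecholamines, had 12, 13 and 208 counts in GCA 1 to 3 and 10, 7 and 7 counts in CON 1 to 3. GCA 3 alone held most of its counts, while GCA 1 and GCA 2 lay just above CON 1. Its log2 fold change of 3.22 ± 0.98 (adjusted p = 0.0217) was 0.55 without GCA 3 (adjusted p = 0.444), and the call was lost with the correction (2.86, adjusted p = 0.0782), with limma-voom (0.162), on log2(FPKM + 1) (0.226) and on log2(FPKM + 0.1) (0.189). SULT1A4 had 9, 26 and 14 counts in GCA and 12, 11 and 27 in CON, with overlapping groups (log2 fold change -0.08 ± 0.47, adjusted p = 0.903).

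The SULT1A genes lie in duplicated stretches of chromosome 16, and their similarity bears on how reads could be shared between them. The lines give coding bases 188 to 277 (counted from the start codon), from GENCODE release 29 transcripts, with capitals where a gene differs from SULT1A1. This window was picked as the 90 bases with the most differences between SULT1A1 and SULT1A3, so it shows less similarity than the whole coding sequence.
SULT1A1: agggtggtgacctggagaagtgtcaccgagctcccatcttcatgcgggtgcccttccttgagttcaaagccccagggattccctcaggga
SULT1A2: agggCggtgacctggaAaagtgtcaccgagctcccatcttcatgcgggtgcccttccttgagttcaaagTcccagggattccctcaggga
SULT1A3: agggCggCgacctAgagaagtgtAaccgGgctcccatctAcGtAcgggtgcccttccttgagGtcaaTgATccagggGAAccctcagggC
SULT1A4: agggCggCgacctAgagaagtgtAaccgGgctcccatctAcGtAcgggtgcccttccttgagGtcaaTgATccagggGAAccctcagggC

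In this window SULT1A2 differs from SULT1A1 at 3 bases, and SULT1A3 and SULT1A4 each at 16. Over the whole coding sequence of 888 bases, SULT1A1 differs from SULT1A2 at 28 bases (96.8% identity) and from SULT1A3 at 49 bases (94.5%), whereas SULT1A3 and SULT1A4 differ at 0. Of all stretches of 75 bases in their transcripts, 98.6% of those of SULT1A3 and 99.0% of those of SULT1A4 also occur in another gene, so the split of counts between this pair is uncertain; for SULT1A1 the share was 14.4%. SLX1A and SLX1B, which encode an endonuclease subunit, adjoin SULT1A3 and SULT1A4 in the same order. SLX1B, next to SULT1A4, had 33, 30 and 280 counts in GCA and 21, 8 and 14 in CON (log2 fold change 2.94, adjusted p = 0.0121; 1.04 and 0.115 without GCA 3). SLX1A, next to SULT1A3, had 24, 48 and 62 counts in GCA and 25, 55 and 22 in CON (0.34, adjusted p = 0.531). The high GCA 3 counts were thus assigned to SULT1A3 and to SLX1B, which are not neighbours. Of the SULT1A3 stretches, 96.6% also occur in the joint entry SLX1A-SULT1A3. Sharing between SLX1A and SLX1B was not measured, so the locus these reads came from cannot be told. These 2 SLX1 genes were named after their values were seen.

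For SULT1C2 the log2 fold change was 0.25 ± 0.43 (adjusted p = 0.674) and SULT4A1, a sulfotransferase-like protein of brain, -0.30 ± 0.24 (adjusted p = 0.333). Both had overlapping groups. SULT1B1 and SULT1E1, the thyroid hormone and oestrogen sulfotransferases, had at most 2 counts in any library.

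Of 32 cytochrome P450 members only 14 had enough counts, and 4 of them rose: 3 of the 6 tested CYP4 genes, 1 of the 6 tested CYP1 to CYP3 genes and 0 of the 2 other tested genes, where 18.3% of all tested genes rose. With the correction 4 passed as well, CYP4F3, CYP4F12, CYP4V2 and CYP2U1 (11.9% of all tested genes). Differences between the families were not tested. The summed level of the 7 CYP4 members was 52.0, 44.7 and 48.9 CPM in GCA 1 to 3 and 30.3, 41.4 and 43.5 CPM in CON 1 to 3, so every GCA library exceeded every CON library by at least a small margin.

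CYP4 enzymes hydroxylate the far end of fatty acids and eicosanoids. CYP4F12, a CYP4F enzyme of intestine and liver, was at 2.73, 3.46 and 4.56 CPM in GCA and 0.724, 1.04 and 1.92 CPM in CON. The groups did not overlap although both spread widely, and the log2 fold change was 1.53 ± 0.35 (2.89-fold, adjusted p = 0.00473). It was 1.26 ± 0.35 with the correction (adjusted p = 0.0234).

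CYP4F22, which acts on the very long fatty acids of skin barrier ceramides, was at 14.9, 12.3 and 13.5 CPM in GCA and 8.35, 8.39 and 9.68 CPM in CON. Its groups did not overlap, and its log2 fold change of 0.62 ± 0.16 (adjusted p = 0.00926) passed whichever single library was left out, but not with the correction (0.31, adjusted p = 0.105). CYP4F3, the leukotriene B4 hydroxylase, was at 4.32, 3.82 and 3.56 CPM in GCA and 2.62, 2.66 and 2.38 CPM in CON. The groups were apart, at a log2 fold change of 0.61 ± 0.22 (adjusted p = 0.0462). With the correction it was 0.69 (adjusted p = 0.0218); the call was lost without GCA 1 (0.111), GCA 2 (0.102), GCA 3 (0.0872), CON 2 (0.0974) or CON 3 (0.135). It was also lost with upper-quartile scaling (0.0585), on library size (0.0811), without the filter (0.0625), with DESeq2 (0.0744), with limma-voom (0.0514) and on log2(FPKM + 1) (0.0616).

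These 3 genes lie in one cluster on chromosome 19, and not all of it rose. From the start of CYP4F22 (15508525), the next gene starts lie at 107 kb (CYP4F8), 132 kb (CYP4F3), 165 kb (CYP4F12), 369 kb (CYP4F2) and 404 kb (CYP4F11). CYP4F8 had 2, 2 and 4 counts in GCA and 0, 0 and 0 in CON, too few for the filter. CYP4F2, a vitamin K and arachidonate hydroxylase, differed by a log2 fold change of 0.52 ± 0.36 (adjusted p = 0.275). CYP4F11 was at 23.7, 18.6 and 20.8 CPM in GCA and 14.7, 24.8 and 24.9 CPM in CON. Its groups overlapped, with CON 1 the lowest of all 6, at a log2 fold change of -0.03 ± 0.19 (adjusted p = 0.917). Outside the cluster, CYP4V2 was at 5.31, 5.24 and 4.77 CPM in GCA and 3.06, 3.91 and 3.57 CPM in CON. Its log2 fold change of 0.54 ± 0.20 did not pass (adjusted p = 0.0549), although the groups were apart; it passed with the correction (0.63, adjusted p = 0.0187), with DESeq2 size factors (0.0436) and with a filter of 1 CPM in 3 libraries (0.0448).

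**Figure D3:**
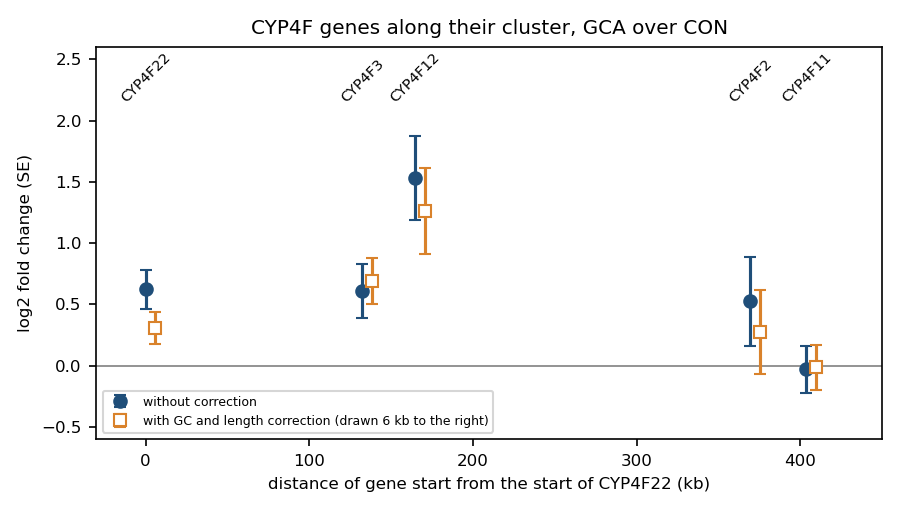
The log2 fold change of GCA over CON (vertical axis, bars give the standard error) is plotted for the 5 tested CYP4F genes by distance of the gene start from that of CYP4F22 in kb (horizontal axis), without (circles) and with (squares) the GC and length correction. CYP4F12 stands highest at 1.53, CYP4F22 and CYP4F3 lie near 0.6 without the correction, and CYP4F11 lies at -0.03.

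Among the drug-metabolizing CYP1 to CYP3 genes, CYP1A1 alone passed the test. Its enzyme oxidizes polycyclic aromatic hydrocarbons. It was at 5.26, 5.96 and 6.86 CPM in GCA and 3.79, 3.91 and 4.45 CPM in CON, with the groups apart, and the log2 fold change was 0.57 ± 0.20 (1.49-fold, adjusted p = 0.0399). The call was lost with the correction (0.49, adjusted p = 0.0602) and without GCA 2 (0.0971), GCA 3 (0.171), CON 2 (0.108) or CON 3 (0.0593). It was also lost with upper-quartile scaling (0.0573), on library size (0.0847) and without the filter (0.0503).

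CYP2S1, a P450 of epithelia, was the CYP member with the highest level per length, at 18.2 ± 1.27 FPKM in GCA and 15.9 ± 2.45 FPKM in CON (SD, n = 3 each). It was at 47.8, 44.8 and 52.0 CPM in GCA and 37.0, 39.5 and 45.4 CPM in CON. CON 3 just exceeded GCA 2, and the log2 fold change of 0.25 ± 0.12 did not pass (adjusted p = 0.132); it was -0.21 with the correction (adjusted p = 0.201). CYP2U1, a fatty acid hydroxylase, differed by a log2 fold change of 0.42 ± 0.18 (adjusted p = 0.0875) with groups that did not overlap, and passed with the correction (0.67, adjusted p = 0.00989). CYP1B1, which oxidizes oestrogens, differed by a log2 fold change of 0.03 ± 0.34 (adjusted p = 0.950), and CYP2J2, an arachidonate epoxygenase, 0.13 ± 0.32 (adjusted p = 0.777). CYP2R1, which carries out the first hydroxylation of vitamin D, was at 4.02, 4.48 and 5.24 CPM in GCA and 4.01, 6.73 and 8.08 CPM in CON. CON 1 lay level with GCA 1, and CON 2 and CON 3 lay above all GCA libraries. Its log2 fold change of -0.46 ± 0.25 did not pass (adjusted p = 0.168) with all libraries, but did without CON 1 (-0.70, adjusted p = 0.00771).

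The other tested P450 genes were CYP27B1, which makes the active form of vitamin D, and CYP20A1, an orphan. CYP27B1 was at 15.9, 15.2 and 16.4 CPM in GCA and 12.4, 12.6 and 14.96 CPM in CON. Its log2 fold change of 0.25 ± 0.15 did not pass (adjusted p = 0.198), although the groups just missed each other, and it was -0.22 with the correction (adjusted p = 0.248). CYP20A1 had -0.50 ± 0.26 (adjusted p = 0.148), every GCA library below every CON library.

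The P450 genes of bile acid synthesis and hepatic drug oxidation had too few counts for the filter, at most 25 in any library. CYP7A1, the rate-limiting enzyme of bile acid synthesis, had 0, 0 and 0 counts in GCA and 0, 0 and 2 in CON. CYP27A1, which opens the alternative route, had 6, 7 and 25 counts in GCA and 4, 11 and 8 in CON, with GCA 3 the highest and the groups overlapping. CYP39A1, an oxysterol hydroxylase of the same pathway, had 8, 10 and 6 counts in GCA and 10, 7 and 13 in CON. CYP3A4, the main hepatic drug-metabolizing P450, had 1 count in all 6 libraries together. CYP46A1, the brain cholesterol hydroxylase, had 11, 10 and 14 counts in GCA and 2, 3 and 6 in CON. CYP2D6, a hepatic drug oxidase that shares 25.8% of its transcript stretches of 75 bases with other genes, had 14, 10 and 11 counts in GCA and 2, 5 and 7 in CON. Both were higher in every GCA library, but neither passed a fit without the filter (adjusted p = 0.0576 and 0.122).

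Of all 31 members under the filter, 17 had at most 3 counts in every library and 6 exceeded 10 counts in some library, with a highest count of 25, and 0 passed without the filter. Beside those named so far, the P450 genes under the filter were CYP1A2, CYP2B6, CYP2C8, CYP2C18, CYP2C19, CYP2E1, CYP2F1, CYP2W1, CYP3A5, CYP11A1 and CYP21A2. CYP11A1, which starts steroid hormone synthesis, had 4, 10 and 9 counts in GCA and 2, 12 and 2 in CON, and the others had at most 8 counts in any library. All 5 glucuronosyltransferase genes were under the filter too. UGT1A6 had 0, 3 and 2 counts in GCA and 0, 0 and 1 in CON, and UGT2B4, a bile acid glucuronosyltransferase, had 1, 0 and 1 in GCA and 0, 0 and 0 in CON. UGT1A10, UGT2B7 and UGT2B15 had at most 1 count in any library. UGT1A genes share most of their exons, and 58.7% of the stretches of UGT1A6 occur in other genes. Differences in these genes were not detectable at this depth.

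Glutathione transferases held most of the counts of the 70 genes. Of 12 cytosolic and mitochondrial members 8 were tested and 3 rose, and of 3 membrane-bound members (MGST) 3 were tested and 2 rose, where 18.3% of all tested genes rose. With the correction 1 cytosolic and 2 membrane-bound members passed (11.9% of all tested genes). GSTP1 alone took 52.8 to 54.7% of all counts of the 70 genes in GCA and 48.8 to 57.6% in CON. Per length it stood first of all tested members in both groups, at 1887 ± 35.6 FPKM in GCA and 1453 ± 285 FPKM in CON (SD, n = 3 each), followed by MGST3 at 170 ± 14.1 FPKM in GCA and 125 ± 23.8 FPKM in CON.

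GSTP1, the pi-class transferase of epithelia and many tumours, was at 1395, 1432 and 1437 CPM in GCA 1 to 3 and 1406, 902 and 907 CPM in CON 1 to 3. CON 1 lay within the GCA range, and CON 2 and CON 3 lay far below it. Its log2 fold change of 0.41 ± 0.17 did not pass (adjusted p = 0.0818). It passed with replicate number as a block (0.44, adjusted p = 0.0372), on library sizes without TMM (0.38, adjusted p = 0.0496) and without CON 1 (0.65, adjusted p = 8.77e-05), and was -0.16 with the GC and length correction (adjusted p = 0.261).

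GSTM4, of the mu class, was at 23.4, 23.9 and 28.0 CPM in GCA and 17.1, 14.5 and 14.5 CPM in CON. The groups were apart, at a log2 fold change of 0.71 ± 0.14 (1.63-fold, adjusted p = 0.00246) and 0.62 with the correction (adjusted p = 0.00450). GSTK1, of mitochondria and peroxisomes, was at 96.6, 116 and 126 CPM in GCA and 85.0, 78.1 and 86.0 CPM in CON. Its groups were apart, and the log2 fold change was 0.45 ± 0.13 (adjusted p = 0.0156). GSTZ1, an enzyme of tyrosine breakdown, was at 45.3, 38.7 and 39.2 CPM in GCA and 33.2, 27.3 and 29.7 CPM in CON. Its groups were apart too, at a log2 fold change of 0.45 ± 0.13 (adjusted p = 0.0143). With the correction GSTK1 (0.20, adjusted p = 0.244) and GSTZ1 (0.23, adjusted p = 0.131) no longer passed. GSTK1 was also lost on log2(FPKM + 0.1) (0.0667) and without GCA 2 (0.0617), GCA 3 (0.0962) or CON 2 (0.0679), and GSTZ1 without GCA 1 (0.0523) or CON 2 (0.0723).

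The other transferases did not pass. GSTO1 and GSTO2, of the omega class that reduces dehydroascorbate, differed little. GSTO1 was at 140, 148 and 145 CPM in GCA and 139, 132 and 138 CPM in CON, with groups that just missed each other and a log2 fold change of 0.08 ± 0.11 (adjusted p = 0.580). GSTO2 was at 130, 125 and 126 CPM in GCA and 140, 105 and 109 CPM in CON. CON 1 was its highest library, and the log2 fold change of 0.11 ± 0.13 (adjusted p = 0.533) passed without CON 1 (0.25, adjusted p = 0.0273). GSTA4, which detoxifies lipid peroxidation aldehydes, had 0.47 ± 0.28 (adjusted p = 0.211) and passed on log2(FPKM + 0.1) (0.0405). GSTT2B, of the theta class, had 0.33 ± 0.17 (adjusted p = 0.137), passed without GCA 1 (0.48, adjusted p = 0.0449), and shares 85.4% of its stretches with other genes, most of all GSTT2. GSTA1, GSTA2, GSTM2 and GSTM3 were under the filter, with at most 13 counts in any library.

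The MGST proteins sit in membranes and act as glutathione transferases and peroxidases, and MGST2 can also make leukotriene C4. MGST2 was at 19.4, 23.4 and 22.8 CPM in GCA and 14.4, 12.4 and 13.3 CPM in CON. Every GCA library was above every CON library, at a log2 fold change of 0.71 ± 0.14 (1.63-fold, adjusted p = 0.00259), and 0.90 with the correction (adjusted p = 0.00138). MGST3 was at 104, 119 and 121 CPM in GCA and 107, 72.7 and 67.6 CPM in CON. CON 1 exceeded GCA 1, so its groups overlapped, and the log2 fold change was 0.48 ± 0.16 (adjusted p = 0.0356). The call held with the correction (0.43, adjusted p = 0.0178) but not without GCA 1 (0.0539), GCA 2 (0.115), GCA 3 (0.135), CON 2 (0.129) or CON 3 (0.130), nor on log2(FPKM + 0.1) (0.0633). MGST1 was at 56.6, 54.9 and 53.8 CPM in GCA and 72.5, 62.0 and 60.6 CPM in CON. It was lower in every GCA library, but the log2 fold change of -0.24 ± 0.12 did not pass (adjusted p = 0.125), and it was 0.01 with the correction (adjusted p = 0.960).

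**Figure D4:**
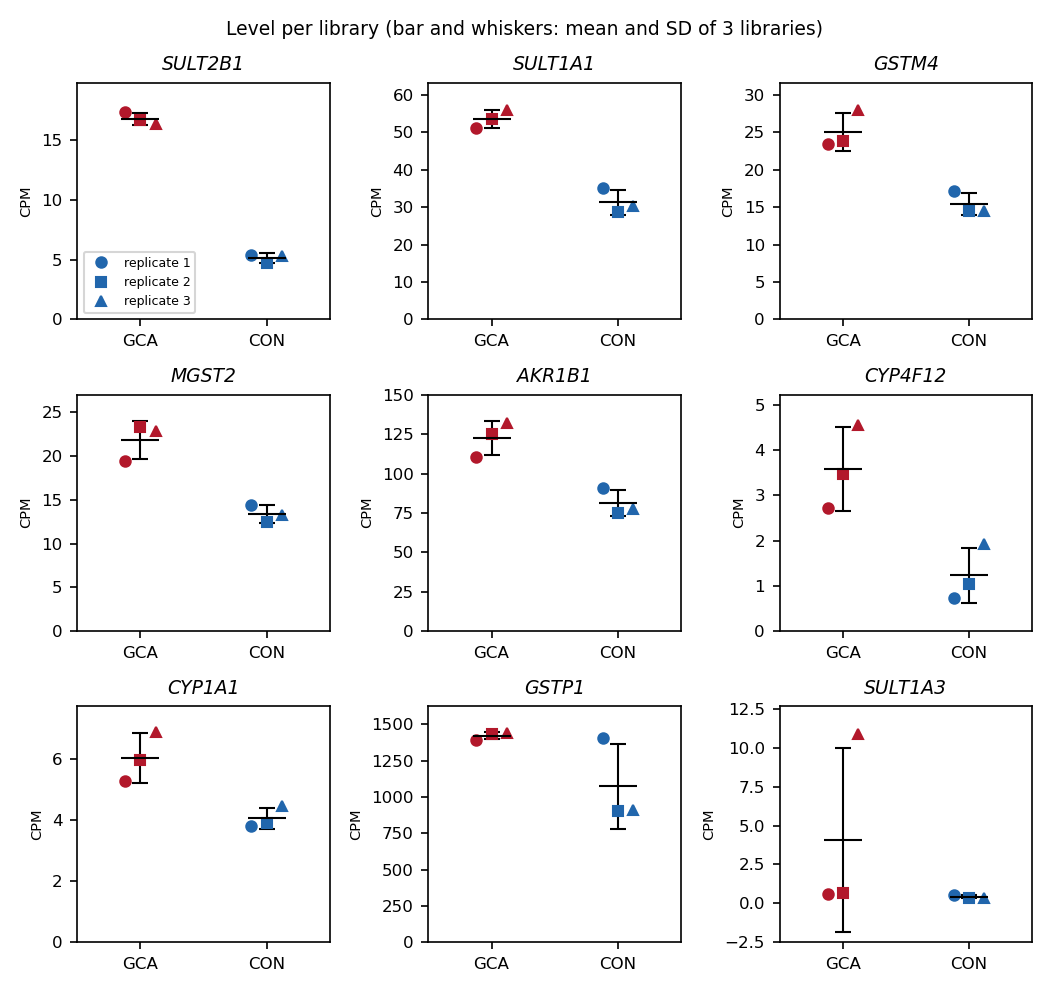
CPM (vertical axis, linear) is plotted for 9 members in 3 GCA (red) and 3 CON (blue) libraries, with marker shapes for the replicate number and bars and whiskers for the mean and SD; the lower whisker of SULT1A3 in GCA falls below 0 because 1 library is far from the others. SULT2B1 lies between 16.3 and 17.3 CPM in GCA and between 4.69 and 5.40 CPM in CON, CON 1 of GSTP1 lies among the GCA libraries, and SULT1A3 is high in GCA 3 alone.

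Of 9 aldo-keto reductases 7 were tested and 2 rose (1 with the correction), where 18.3% of all tested genes rose (11.9% with it). Their summed level was 309, 344 and 365 CPM in GCA 1 to 3 and 264, 227 and 242 CPM in CON 1 to 3, with no overlap. AKR1B1, aldose reductase of the polyol pathway, was at 111, 125 and 132 CPM in GCA and 90.6, 75.2 and 77.6 CPM in CON. The groups were apart, at a log2 fold change of 0.60 ± 0.12 (1.51-fold, adjusted p = 0.00289) and 0.44 with the correction (adjusted p = 0.00896).

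AKR1A1, an aldehyde reductase, was at 188, 208 and 222 CPM in GCA and 163, 141 and 154 CPM in CON. All GCA libraries were higher (log2 fold change 0.43 ± 0.12, adjusted p = 0.0143). The call was lost with the correction (0.15, adjusted p = 0.263) and without GCA 2 (0.0520), GCA 3 (0.0850) or CON 2 (0.0774).

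The AKR1C genes encode ketosteroid reductases, and AKR1C4 is the liver form that acts on bile acid precursors. AKR1C1, AKR1C2 and AKR1C3 had log2 fold changes of -0.03 ± 0.32, 0.37 ± 0.22 and 0.45 ± 0.26 (adjusted p = 0.941, 0.212 and 0.1999), and AKR1C4 had 1 count in all. AKR1C1 and AKR1C2 share 22.2% and 41.3% of their stretches with other genes, mostly with each other, so their split is uncertain. AKR1B10, a retinal reductase, had -0.35 ± 0.27 (adjusted p = 0.335), and AKR1B15 had 1 count. AKR1E2, an anhydrofructose reductase, was at 1.89, 1.68 and 0.943 CPM in GCA and 2.23, 2.29 and 2.74 CPM in CON. All GCA libraries were lower, but the log2 fold change of -0.68 ± 0.30 did not pass (adjusted p = 0.0920).

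**Figure D5:**
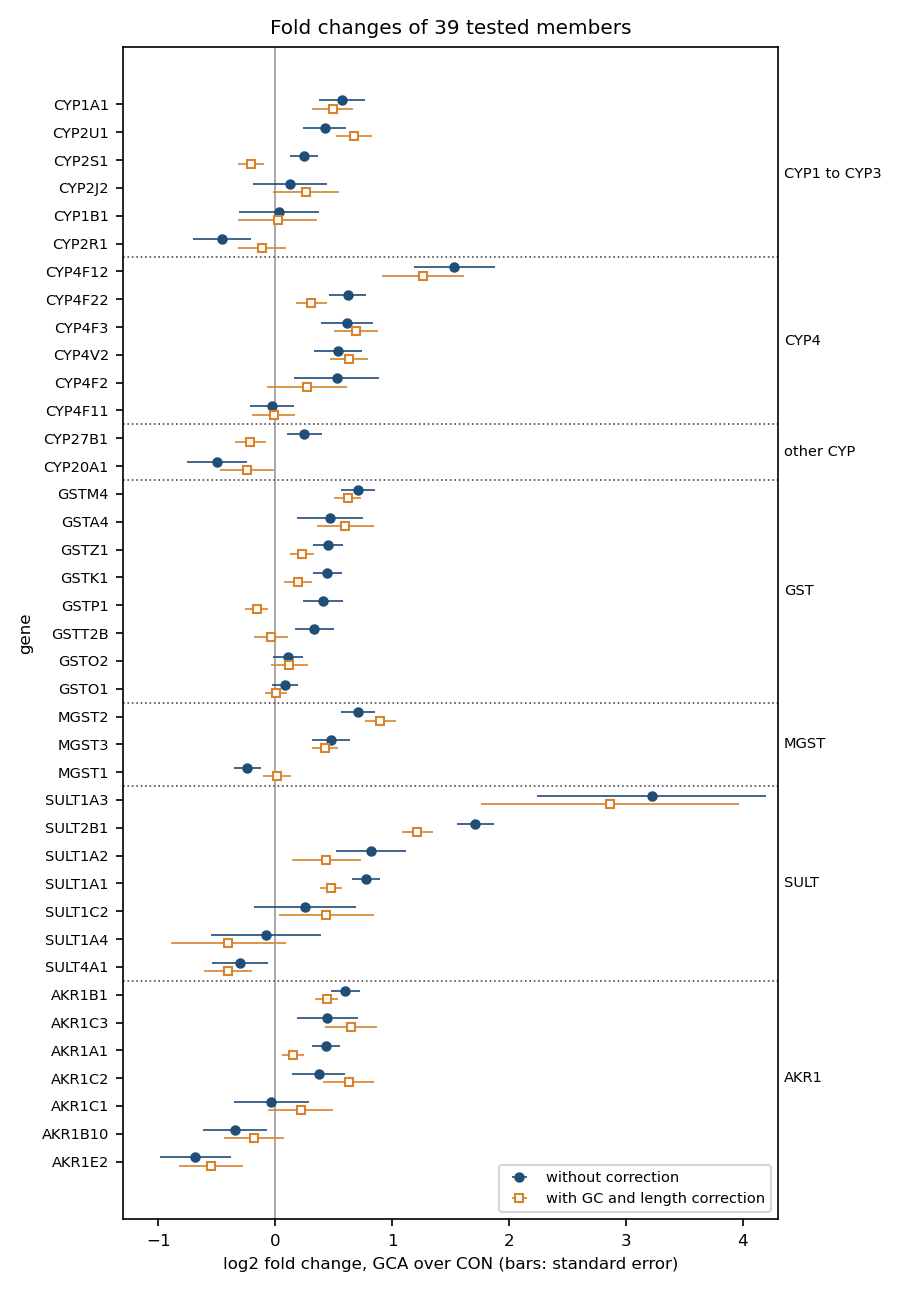
The log2 fold change of GCA over CON (horizontal axis, bars give the standard error) is plotted for the 39 tested members (rows, by family) without (circles) and with (squares) the GC and length correction. SULT2B1, CYP4F12 and MGST2 stay well above 0 in both fits, GSTP1, CYP2S1 and CYP27B1 move from above to below 0, and SULT1A3 has the widest bars.

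Genes that regulate or supply these enzymes were read from 5 lists. The counts stand against 18.3% of all tested genes higher and 18.1% lower (11.9% and 16.7% with the correction), and the medians against -0.04 (-0.06). Among 18 regulators 15 were tested, 2 rose and 2 fell (with the correction 0 and 4), with a median log2 fold change of -0.06 (-0.24 with the correction). AHR, the sensor that drives CYP1A1, was at 20.6, 24.4 and 21.0 CPM in GCA and 20.8, 27.1 and 24.3 CPM in CON, with overlapping groups (log2 fold change -0.13 ± 0.14, adjusted p = 0.504, and 0.20 with the correction). NR1I2 and NR1I3, which encode PXR and CAR, had at most 1 and 4 counts in any library. NFE2L2, which encodes NRF2, was at 35.5, 47.1 and 35.4 CPM in GCA and 42.8, 59.5 and 61.4 CPM in CON. Its groups overlapped, and the log2 fold change was -0.47 ± 0.16 (adjusted p = 0.0349). The call was lost with the correction (-0.24, adjusted p = 0.195), on log2(FPKM + 1) (0.083) and log2(FPKM + 0.1) (0.107), and without GCA 1 (0.146), GCA 3 (0.150), CON 2 (0.128) or CON 3 (0.128).

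The other regulators past the threshold were RXRA, the partner of many nuclear receptors (0.60 ± 0.11, adjusted p = 0.00167), MAFF, a small Maf protein (0.55 ± 0.14, adjusted p = 0.00747), and TIPARP, an AHR target that restrains it (-0.72 ± 0.18, adjusted p = 0.00898). None of the 3 passed with the correction (adjusted p = 0.339, 0.591 and 0.0528). MAFF was also lost without GCA 3 (0.0539) and TIPARP without GCA 1 (0.0510). The 4 that fell with the correction were AHRR, the repressor of AHR (-0.58, adjusted p = 0.00916), MAFG, a small Maf partner of NRF2 (-0.53, 0.00727), the nuclear receptor HNF4A (-0.42, 0.0254) and CEBPB, the factor C/EBP beta (-0.62, 0.0119). They did not pass without it (0.425, 0.355, 0.464 and 0.829). TIPARP and these 4 were named after their values were seen.

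Among 12 genes for electron supply and haem turnover 4 rose and 0 fell (2 and 2 with the correction), with a median log2 fold change of 0.16 (0.04 with the correction). POR, the electron donor of microsomal P450 enzymes, was at 192, 171 and 191 CPM in GCA and 135, 128 and 126 CPM in CON. Its groups were apart (0.51 ± 0.11, adjusted p = 0.00467), but it missed the threshold with the correction (0.22, adjusted p = 0.0732). CYB5B, the outer mitochondrial cytochrome b5, had 0.43 ± 0.13 (adjusted p = 0.0217) and 0.69 with the correction (adjusted p = 0.00538). Its call was lost without GCA 2 (0.0942), GCA 3 (0.0876), CON 2 (0.0929) or CON 3 (0.0960). The others, seen only after the test, were CYB5R3, which reduces cytochrome b5 (0.39 ± 0.13, adjusted p = 0.0303), and FDXR, the mitochondrial ferredoxin reductase (0.39 ± 0.13, adjusted p = 0.0386). Neither passed with the correction (0.959 and 0.464). With it CYB5A, the microsomal cytochrome b5, rose beside CYB5B (0.49, adjusted p = 0.00632), and the ferredoxin FDX2 (-0.37, 0.0274) and haem oxygenase HMOX1 (-0.34, 0.0237) fell. CYB5R3 did not pass without GCA 1, GCA 3, CON 2 or CON 3 (up to 0.117), nor FDXR without any of the libraries but CON 1 (up to 0.157).

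Among 15 genes for glucuronate, sulfate and glutathione supply 1 rose and 4 fell (3 and 2 with the correction), with a median log2 fold change of -0.04 (-0.0051 with the correction). The riser was SLC35B2, which carries the sulfate donor PAPS into the Golgi, at 209, 189 and 204 CPM in GCA and 138, 120 and 116 CPM in CON (0.69 ± 0.12, adjusted p = 0.00103). It stood apart between the groups and passed with the correction (0.41, adjusted p = 0.00773). GCLM, a subunit of the rate-limiting enzyme of glutathione synthesis, was at 21.7, 21.7 and 17.97 CPM in GCA and 38.5, 36.4 and 34.0 CPM in CON. It was lower in every GCA library (-0.83 ± 0.13, adjusted p = 0.000511; -0.51 and 0.0278 with the correction). The other 3 that fell, named after their values were seen, were SLC7A11, the cystine importer (-1.17 ± 0.26, adjusted p = 0.00407), GCLC, the catalytic partner of GCLM (-0.54 ± 0.15, adjusted p = 0.0147), and BPNT2, a Golgi phosphatase of sulfation (-0.39 ± 0.12, adjusted p = 0.0234). SLC7A11 passed with the correction (0.0301), and GCLC and BPNT2 did not (0.0971 and 0.605). GCLC did not pass without GCA 3, CON 2 or CON 3 (up to 0.0739), nor BPNT2 without GCA 2, GCA 3 or CON 2 (up to 0.125).

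Other phase 1 and 2 enzymes outside the families gave 9 higher and 1 lower of 24 tested (9 and 1 with the correction), with a median log2 fold change of 0.33 (0.23 with the correction). PTGES, the inducible prostaglandin E synthase and a relative of the MGST proteins, was at 138, 174 and 179 CPM in GCA and 48.5, 31.6 and 33.2 CPM in CON. Its groups were far apart (2.12 ± 0.17, adjusted p = 4.28e-06; 1.84 with the correction). EPHX1, microsomal epoxide hydrolase, was at 124, 112 and 133 CPM in GCA and 52.3, 59.8 and 62.6 CPM in CON, again with no overlap (1.08 ± 0.12, adjusted p = 6.11e-05; 0.76 with the correction). The gene that fell was GSTCD, a GST domain protein (-0.93 ± 0.17, adjusted p = 0.00158; -0.64 with the correction), named after its values were seen.

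Of 9 tested export genes 3 rose and 2 fell (3 and 1 with the correction), with a median log2 fold change of 0.14 (0.08 with the correction). ABCC2 and ABCC3, which export conjugates and bile acids, were the leading risers. ABCC2 was at 44.1, 58.2 and 59.3 CPM in GCA and 17.8, 32.1 and 28.3 CPM in CON (1.05 ± 0.19, adjusted p = 0.00137). ABCC3 was at 72.5, 88.1 and 105 CPM in GCA and 22.6, 40.6 and 51.3 CPM in CON (1.21 ± 0.23, adjusted p = 0.00182). Every GCA library exceeded every CON library for both. Named after their values were seen, ABCC5 rose (0.52 ± 0.15, adjusted p = 0.0192) and ABCC4 fell (-0.64 ± 0.15, adjusted p = 0.00515). ABCC5 did not pass without GCA 3 or CON 3 (up to 0.0882).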

How the data were processed

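RNA sequencing of 3 GCA and 3 CON libraries was analysed from tables deposited by the authors. The deposited raw counts per gene were the tested values, and columns were matched to samples by title. The deposited FPKM values, which for 16229 of 16229 genes equal count over library total and one gene length (relative tolerance 1e-09), gave levels per length. Per the submitters' processing notes, HTSeq 0.11.2, HISAT2 2.2.1.0 and fastp 0.20.1 were used, on build hg38. No source used here gives the annotation release or the strand setting of the counting, so overlapping antisense genes cannot be told apart.

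All genes were fitted with edgeR 4.0.16 in R 4.3.3 (TMM, filterByExpr with minimum count 10 and minimum total 15, glmQLFit, glmQLFTest, Benjamini-Hochberg adjustment, threshold 0.05). The standard error is the log2 fold change over the square root of F. Checks on simulated data preceded the fit. Depth was 18057453 to 20531612 counts per library.

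GC content came from GENCODE 29 transcripts, by symbol for 15801 genes and by older symbol or identifier for 302 (99.2%). The GC and length correction used offsets per library from natural splines. Coordinates and promoters came from RefSeq (GRCh38.p14); all 70 members matched by symbol. Shared sequence was counted in stretches of 75 bases. Promoter entries not in the table used are not shown.

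Alternatives were other normalizations, filters, DESeq2 1.42.0, limma 3.58.1 (voom, log2(FPKM + 1), log2(FPKM + 0.1)), the GC and length correction, the replicate block and leaving out libraries. Pairing was checked on deviations from the group means across genes. Their correlation was 0.206, 0.137 and 0.104 for libraries with the same number and -0.172 to 0.0954 for the rest. All same-number values exceed the limit of 0.1 set for pairing, but the lowest of them, 0.104, is close to the highest of the rest, 0.0954. Pairing by number therefore remains uncertain, and counts of calls with replicate number as a block are given beside the main fit. Block values of single genes are given only for GSTP1, whose call changed, and for signs that changed with the correction. Every fold change, error and adjusted p is from the fit without the block unless the block is named.

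Members past the threshold, members of at least 20 CPM on average, and the largest of a family with neither are named with every library's value, as are the 2 lowest p of each pathway list, AHR, NR1I2, NR1I3, NFE2L2 and POR. The members and lists were chosen with earlier results of these data known. One gene of the export list, among the 2 that fell, is not reported here.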

Additional observations from a re-analysis of the deposited data

How the results depend on the processing

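The number of members called higher was 15, and 10 to 16 under the other normalizations, filters, tests, units, the GC and length correction and the replicate block. It was 8 to 16 when single libraries were left out, with 8 without GCA 3 or CON 2 and 9 without GCA 2, and 18 without replicate 1 of both groups. Members called lower were 0, but 1 on log2(FPKM + 1) (MGST1), 1 without CON 1 (CYP2R1) and 3 without replicate 1 of both. These 3 were AKR1E2 (log2 fold change -0.91, adjusted p = 0.0245), CYP2R1 (-0.58, 0.0121) and CYP4F11 (-0.31, 0.0343). Calls over all tested genes were 4584, and 2621 (without GCA 3) to 6707 (without CON 1) with single libraries left out, 3029 without CON 2 and 7419 without replicate 1 of both. The replicate block changed the call of GSTP1 (0.44) and of no other tested member.

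The log2 fold change changed sign with the correction for AKR1C1 (0.22; 0.23 with the block), CYP27B1 (-0.22; -0.21), CYP2S1 (-0.21; -0.20), GSTP1 (-0.16; -0.16), GSTT2B (-0.041; -0.052), MGST1 (0.010; 0.015) and AHR (0.20; 0.21). That of CYP1B1 was -0.023 on library size, -0.00050 with limma-voom, -0.0077 on log2(FPKM + 1), -0.028 on log2(FPKM + 0.1), and -0.34 to 0.25 without single libraries. That of CYP4F11 was 0.0010 with limma-voom, 0.011 with block and correction, and -0.24 to 0.10 without single libraries. Without replicate 1 of both groups it was -0.31 and passed (adjusted p = 0.0343). Without single libraries AKR1C1 ranged from -0.18 to 0.16, SULT1A4 from -0.58 to 0.44 and SULT1C2 from -0.22 to 0.48, and SULT1A4 was 0.087 without replicate 1 of both. Apart from that call of CYP4F11, none of these passed the test under those settings. The causes were not tested. Counts near 1 CPM and 3 libraries a group limit what could be detected.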
